A study of Bos taurus with 60 samples.

Results

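Transcripts of 6 inflammatory genes were examined in the uterine endometrium of 60 beef heifers, out of 24616 Ensembl genes in the deposited count table. The genes were taken by identifier and comprised the cytokine genes TNF (ENSBTAG00000025471), IL6 (ENSBTAG00000014921) and IL1B (ENSBTAG00000001321), the chemokine gene CXCL8 (ENSBTAG00000019716), the receptor gene TLR4 (ENSBTAG00000006240) and the prostaglandin synthase gene PTGS2 (ENSBTAG00000014127). The identifiers and symbols come as given pairs, because the gene table used for names held no Ensembl identifier. Levels were compared across the 4 dietary groups and against MX2 (ENSBTAG00000008471), an interferon-stimulated gene.

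TLR4 is a receptor of the innate immune system that binds bacterial lipopolysaccharide and signals through NF-kB, a transcription factor that in turn drives TNF, IL6, IL1B, CXCL8 and PTGS2 in many cell types. TNF, IL-6 and IL-1 beta are pro-inflammatory cytokines, and CXCL8 attracts neutrophils. PTGS2, also known as cyclooxygenase 2, carries out the committed step of prostaglandin synthesis, and prostaglandin F2 alpha from the ruminant endometrium ends the life of the corpus luteum in a cycle without pregnancy. In cattle the elongating conceptus secretes interferon tau around the day of maternal recognition of pregnancy, and endometrial MX2 is among the genes this interferon induces.

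The heifers were nulliparous crossbred animals inseminated at a synchronised oestrus with the semen of 1 sire. For 30 days before insemination they received a concentrate-based diet with either a rumen-protected palmitic acid supplement (control, CON) or a partly rumen-protected n-3 PUFA supplement based on fish oil (PUFA). For 16 days after insemination they either stayed on the high plane of nutrition (High) or were restricted to below their maintenance requirement (Low), with the lipid supplement continued. The labels gave 14 CON_High, 14 CON_Low, 17 PUFA_High and 15 PUFA_Low heifers, whereas the design text deposited with the data gives the larger n-3 PUFA group to the low plane. The group sizes in the study's methods match the labels, while the pregnant and non-pregnant heifers listed there add up to the sizes in the design text. All groups mixed pregnant and non-pregnant heifers, and the labels do not give the status of an individual heifer. Between 9635801 and 13943813 reads were counted on genes per heifer, with a median of 11556278, and the reads of the 100 most abundant genes made up 17.9% to 30.6% of them. The median of that share was 24.9% in PUFA_Low, 20.9% in CON_High, 21.5% in CON_Low and 20.9% in PUFA_High. Levels are given as CPM (reads scaled to a common library size) after TMM scaling, which is not corrected for gene length, so that levels are compared between heifers and not between genes. The samples were pieces of tissue, in which fewer cells of a type and less RNA per cell cannot be told apart, and markers of endometrial and immune cell types were not checked because their identifiers could not be paired with symbols.

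TLR4, PTGS2 and IL1B were detected in every heifer, and TNF, IL6 and CXCL8 were at the limit of detection. TLR4 had 444 to 1176 reads per heifer, PTGS2 had 66 to 8421 and IL1B had 4 to 51. These 3 were among the 14363 genes that passed the expression filter of edgeR, and the other 3 were not.

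TNF had between 0 and 13 reads per heifer, with 0 reads in 6 heifers and more than 3 in 20. IL6 had between 0 and 7 reads, with 0 in 18 heifers and more than 3 in 6. CXCL8 had between 0 and 6 reads, with 0 in 30 heifers and more than 3 in 4. Across all heifers together the sums were 183 reads for TNF, 88 for IL6 and 58 for CXCL8. A count of 0 allows a level of up to 0.205 to 0.338 CPM, taken as 3 counts at the depth of each library and covering counting error only. These 3 cytokine genes were therefore tested in a separate model of all 20669 genes with at least 1 read.

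**Figure D1:**
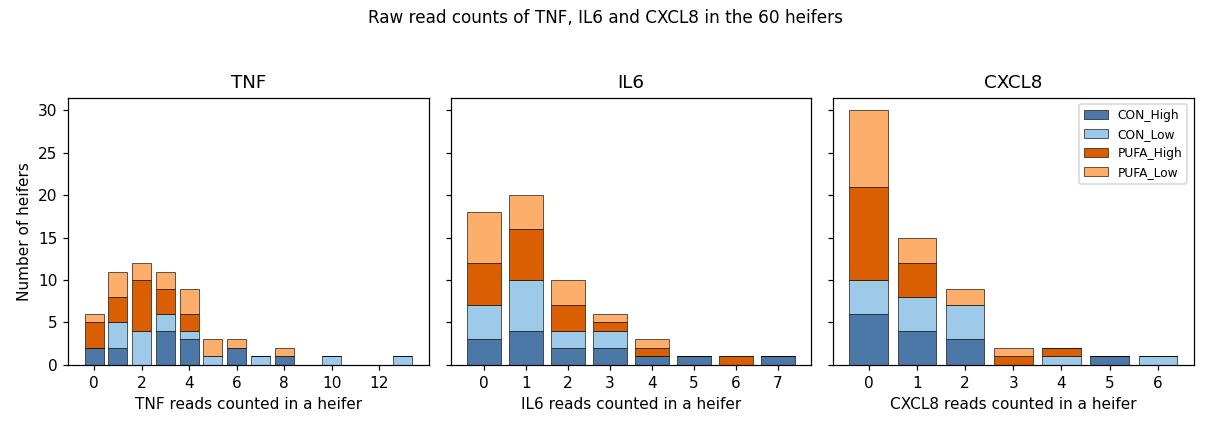
Number of heifers (vertical axis) with each raw read count (horizontal axis) of TNF, IL6 and CXCL8, stacked by diet group over the 60 heifers. CXCL8 was at 0 reads in 30 heifers, IL6 in 18 and TNF in 6, and no heifer had more than 13 reads of any of them.

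PTGS2 was the most variable of the 3 genes that passed the expression filter, between heifers of the same diet. Its level ranged from 127 to 671 CPM in CON_High (median 223), from 101 to 543 CPM in CON_Low (median 216), from 6.00 to 423 CPM in PUFA_High (median 236) and from 70.6 to 746 CPM in PUFA_Low (median 219.7). All 4 groups overlapped over most of their range. The highest heifer was 124 times the lowest. The biological coefficient of variation in the edgeR model, a measure of spread between heifers beyond counting error, was 0.627 for PTGS2 and exceeded that of 94.99% of the genes tested. Among the 501 genes closest to it in level it exceeded 96.2%, so its spread was high also for its abundance. Both this coefficient and the range include 2 PUFA_High heifers at 6.00 and 20.3 CPM, and the coefficient was not computed without them.

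The lowest PTGS2 values came from PUFA_High replicate 11, with 66 reads (6.00 CPM), and PUFA_High replicate 2, with 233 reads (20.3 CPM). The next heifer, PUFA_Low replicate 6, had 787 reads (70.6 CPM). Both of the lowest heifers also had little IL1B, with 6 and 4 reads. Their TLR4 levels were far apart, at 88.3 CPM in replicate 11 and 39.9 CPM, the lowest of all 60 heifers, in replicate 2. Both had low MX2, at 10.5 and 18.0 CPM, and their total counts, 10972798 and 10620187, lay inside the range of the other libraries. The highest PTGS2 levels were found in PUFA_Low replicate 4 (746 CPM), CON_High replicate 11 (671 CPM) and PUFA_Low replicate 5 (593 CPM).

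TLR4 varied little. Its level was 57.3 to 106 CPM in CON_High (median 73.4), 54.2 to 102 CPM in CON_Low (median 73.9), 39.9 to 109.5 CPM in PUFA_High (median 75.4) and 50.1 to 90.9 CPM in PUFA_Low (median 68.2). The highest heifer was 2.75 times the lowest, and the groups overlapped almost entirely. Its biological coefficient of variation, 0.198, exceeded that of 31.5% of genes. Among the 501 genes of similar level it exceeded 48.1%, so its spread was ordinary for its abundance.

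IL1B ranged from 0.998 to 3.80 CPM in CON_High (median 2.10), from 0.823 to 4.18 CPM in CON_Low (median 2.18), from 0.348 to 4.37 CPM in PUFA_High (median 1.38) and from 1.06 to 5.32 CPM in PUFA_Low (median 2.06). The PUFA_High group had the lowest median, and its range overlapped that of each other group. The highest level was 15.3 times the lowest. Its biological coefficient of variation was 0.450, above that of 85.7% of all genes but of 64.7% of the 501 genes of similar level.

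**Figure D2:**
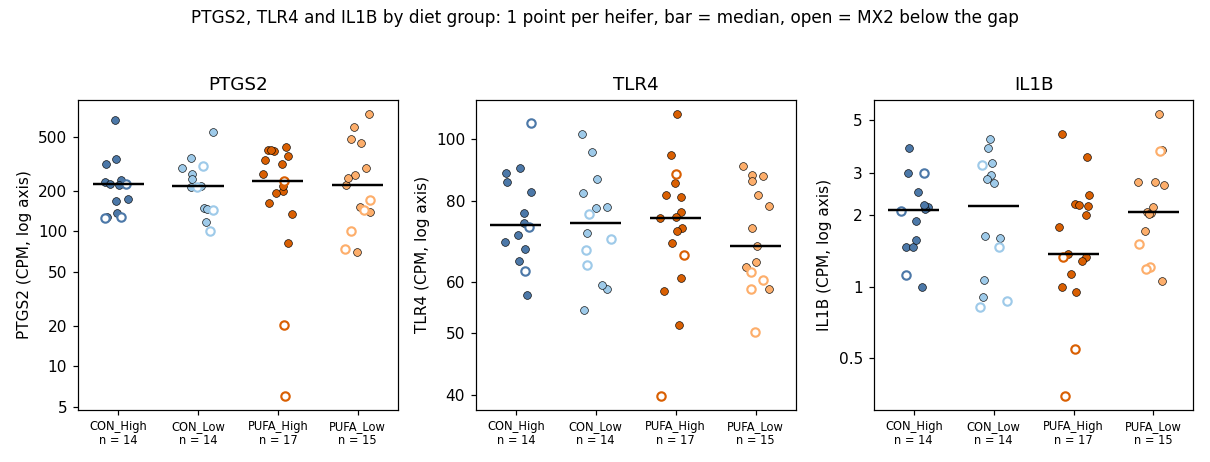
Level of PTGS2, TLR4 and IL1B (CPM after TMM scaling, log axis) in each heifer by diet group, with a bar at the median. Open points are heifers with MX2 at or below 18.0 CPM. The groups overlap for each gene, and the lowest PTGS2 points, at 6.00 and 20.3 CPM, belong to PUFA_High heifers with low MX2.

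No difference between diets was called for any of the 6 genes. A gene was called when its Benjamini-Hochberg adjusted p over all genes tested was under 0.10 and its fold change was above 1.5. In each of the 5 diet comparisons 0 of the 3 genes that passed the expression filter and 0 of the 3 sparse genes were called (edgeR's quasi-likelihood test). Of all genes in the same models, 0% to 8.04% and 0.0145% to 5.95% were called, so that 0 of 3 is near these shares. The number of genes with an unadjusted p under 0.05 among the 6 was 1, for TNF between PUFA_Low and PUFA_High. In that comparison 5672 of the 20669 genes in the same model had an unadjusted p under 0.05. The median log2 difference of all genes tested lay between -0.03 and 0.00 in these comparisons.

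On the low plane, where n-3 PUFA and control heifers were set side by side after restriction, PTGS2 differed by 0.23 on the log2 scale (SE 0.35, 95% interval -0.46 to 0.92, adjusted p = 0.718). The same comparison gave -0.06 for TLR4 (interval -0.27 to 0.15, adjusted p = 0.748) and 0.09 for IL1B (interval -0.44 to 0.61, adjusted p = 0.870). In this comparison 2.57% of the 14363 genes were called. In the model of all 20669 genes, of which 2.46% were called, the difference was -0.15 for TNF (adjusted p = 0.892), 0.09 for IL6 (adjusted p = 0.985) and -0.99 for CXCL8 (adjusted p = 0.370). CXCL8 had at least 1 read in 6 of 15 PUFA_Low and 10 of 14 CON_Low heifers, and the interval of its difference, -2.23 to 0.25, was wide.

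On the high plane, PTGS2 differed by 0.04 between n-3 PUFA and control heifers (SE 0.34, interval -0.63 to 0.71, adjusted p = 0.974), TLR4 by -0.04 (interval -0.25 to 0.16, adjusted p = 0.891) and IL1B by -0.25 (interval -0.77 to 0.26, adjusted p = 0.723). The share of genes called was 0%, with 1513 genes at an unadjusted p under 0.05 and 2 genes called by DESeq2. TNF differed by -0.72 (interval -1.55 to 0.10, adjusted p = 0.576), IL6 by -0.48 (adjusted p = 0.737) and CXCL8 by -0.62 (adjusted p = 0.736), against 0.169% of genes called in that model. TNF had a median of 2 reads in PUFA_High heifers and 3 in CON_High heifers.

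Between PUFA_Low and PUFA_High, the comparison with 5.61% of genes called, PTGS2 was higher in PUFA_Low by 0.18 (SE 0.33, interval -0.48 to 0.84, adjusted p = 0.732). Without the 2 heifers of lowest PTGS2, a choice made after their values had been seen, this value was 0.01. TLR4 differed by -0.05 (interval -0.25 to 0.15, adjusted p = 0.742) and IL1B by 0.44 (SE 0.25, interval -0.07 to 0.94, unadjusted p = 0.0912, adjusted p = 0.212). TNF had the smallest unadjusted p of any of the 6 genes in a diet comparison, with a difference of 0.82 (SE 0.41, p = 0.0494) and an adjusted p of 0.181 in the model where 5.16% of genes were called. Its counts were 0 to 8 in PUFA_Low (49 reads in 15 heifers) and 0 to 4 in PUFA_High (32 reads in 17 heifers), and these ranges overlapped. This TNF difference passed the threshold with MX2 as a covariate (0.92, adjusted p = 0.0995) and without PUFA_Low replicate 3 (0.92, adjusted p = 0.0998). IL6 differed by -0.30 (adjusted p = 0.757) and CXCL8 by 0.10 (adjusted p = 0.968).

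Between the planes in control heifers, PTGS2 differed by -0.01 (SE 0.35, interval -0.72 to 0.69, adjusted p = 1.00), TLR4 by -0.03 (interval -0.25 to 0.18, adjusted p = 0.987) and IL1B by 0.09 (interval -0.44 to 0.63, adjusted p = 0.985). The share of genes called was again 0%, with 705 genes at an unadjusted p under 0.05 and 0 called by DESeq2, and it was 0.0145% in the model of all genes. In that model TNF differed by 0.24 (adjusted p = 0.961), IL6 by -0.87 (interval -1.93 to 0.19, adjusted p = 0.830) and CXCL8 by 0.48 (adjusted p = 0.923). IL6 was summed to 30 reads in 14 CON_High heifers and 16 reads in 14 CON_Low heifers.

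The interaction asked whether the plane effect differed between the supplements, and 8.04% of the 14363 genes were called for it (5.95% of all 20669 genes). It was 0.19 for PTGS2 (SE 0.48, interval -0.77 to 1.16, adjusted p = 0.826), -0.02 for TLR4 (interval -0.31 to 0.27, adjusted p = 0.949) and 0.34 for IL1B (interval -0.40 to 1.08, adjusted p = 0.571). It was 0.57 for TNF (adjusted p = 0.605), 0.57 for IL6 (adjusted p = 0.732) and -0.37 for CXCL8 (adjusted p = 0.903). The comparisons share groups, so that their values are not independent of one another.

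The width of these intervals sets what the comparisons could show. For TLR4 each interval between 2 groups stayed within -0.27 and 0.18 on the log2 scale, so that a 1.5-fold change lay outside it. For PTGS2 and IL1B every interval reached beyond a 1.5-fold change on at least 1 side, so that a difference of that size was not excluded on that side. With the labels PUFA_High and PUFA_Low swapped, as the design text would have it, 0 of the 6 genes were called in any comparison, and the plane difference of IL1B in these heifers was -0.44. Of the 14363 genes that passed the filter, 6 were then called for n-3 PUFA on the low plane, 206 on the high plane and 310 for the interaction. With the share of the 100 most abundant genes as a covariate, again 0 of the 6 genes were called, and the same difference was -0.07. That covariate left few of the 14363 genes called: 42 between planes in n-3 PUFA heifers, and 0 for the interaction and for n-3 PUFA on the low plane. The result of 0 of 6 therefore does not set these genes apart.

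**Figure D3:**
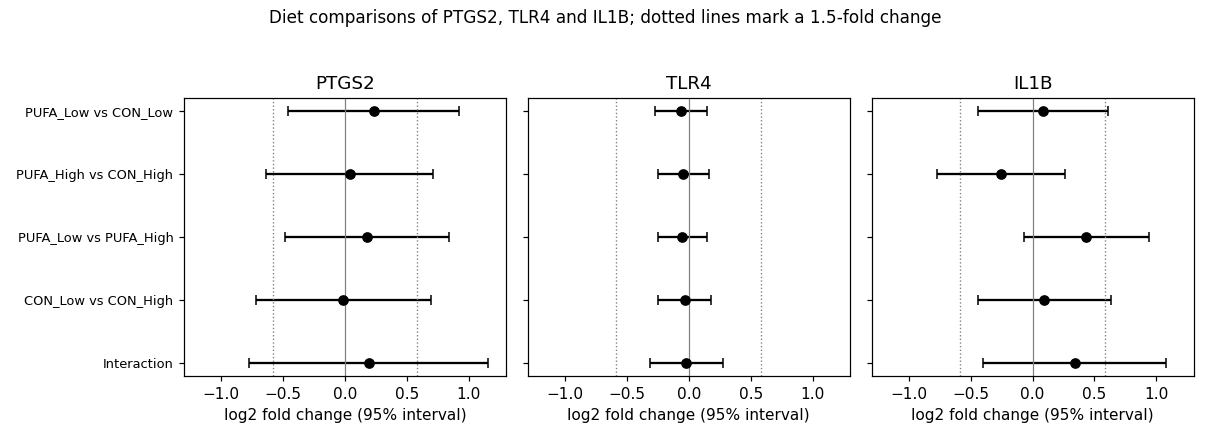
Log2 fold change (point) with 95% interval (bar) of PTGS2, TLR4 and IL1B in the 4 comparisons between diet groups and the interaction, with dotted lines at a 1.5-fold change. Each interval includes 0, and those of TLR4 between groups stay within -0.27 and 0.18.

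MX2 spanned from 2.81 to 2370 CPM and fell into separate clusters. Ordered by level, the 60 heifers had 1 wide gap, from 18.0 to 161 CPM (3.16 on the log2 scale), with 14 heifers below and 46 above it. The 14 heifers were spread over the diets, with 3 in CON_High, 4 in CON_Low, 3 in PUFA_High and 4 in PUFA_Low. Above the gap the median MX2 level was 1101 CPM in CON_High, 1087 CPM in CON_Low, 863 CPM in PUFA_High and 866 CPM in PUFA_Low. These clusters were defined from the data and are not groups of the study, so their levels are described without a test and the relation to MX2 was fitted as a slope over heifers with diet group as a term.

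PTGS2 was at 6.00 to 304.7 CPM in the 14 heifers below the gap (median 136) and at 70.6 to 746 CPM in the 46 above it (median 242). IL1B was at 0.348 to 3.72 CPM below (median 1.27) and 0.906 to 5.32 CPM above (median 2.14). TLR4 was at 39.9 to 106 CPM below (median 64.8) and 51.5 to 109.5 CPM above (median 76.3). The medians of these 3 genes were higher above the gap, and the ranges overlapped in each case. TNF was at 0 reads in 3 of 14 heifers below and 3 of 46 above, IL6 in 4 of 14 and 14 of 46, and CXCL8 in 9 of 14 and 21 of 46.

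Over all 60 heifers PTGS2, TLR4 and IL1B rose with MX2, in a fit that called 38.7% of the 14363 genes, 16.4% of all genes being called as rising with MX2. The slope per doubling of MX2 was 0.13 on the log2 scale for PTGS2 (SE 0.040, interval 0.05 to 0.21, adjusted p = 0.00828), 0.03 for TLR4 (SE 0.011, interval 0.01 to 0.06, adjusted p = 0.0165) and 0.08 for IL1B (SE 0.031, interval 0.02 to 0.14, adjusted p = 0.0371). All 3 slopes were called at an adjusted p under 0.10, a rule without a fold limit. Without the 2 heifers of lowest PTGS2 the slope of IL1B was 0.06 (adjusted p = 0.135) and no longer called, and that of PTGS2 was 0.10 (adjusted p = 0.0196). In the model of all genes, with 29.2% called, TNF had a slope of 0.12 (SE 0.048, adjusted p = 0.0676), IL6 of 0.01 (adjusted p = 0.956) and CXCL8 of 0.00 (adjusted p = 0.984). The call for TNF was lost when any of 5 single heifers was left out, namely CON_Low replicate 14, CON_High replicate 14, PUFA_Low replicate 3, PUFA_Low replicate 15 or PUFA_High replicate 11, with slopes between 0.10 and 0.11 and adjusted p from 0.103 to 0.134. It was lost too without the diet group term (adjusted p = 0.131) and with a block for the prefix of the library code (adjusted p = 0.101).

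The slope over all heifers spans both clusters, and it was therefore fitted within each. TLR4 was the 1 gene of the 6 with a called slope inside a cluster. Among the 46 heifers above the gap TLR4 rose by 0.17 on the log2 scale per doubling of MX2 (SE 0.029, interval 0.11 to 0.23, adjusted p = 3.48e-05), over a range of 3.88 doublings. In this fit 30.5% of 14355 genes were called and 15.8% were called rising. A called slope therefore does not by itself set TLR4 apart from other genes. In absolute size the slope of TLR4 exceeded that of 81.6% of the genes in this fit. In the 15 of these heifers with the lowest MX2 (161 to 728 CPM), TLR4 was at 54.2 to 81.9 CPM with a median of 64.6. In the 15 with the highest MX2 (1325 to 2370 CPM), it was at 68.2 to 109.5 CPM with a median of 86.8. The correlation of the log2 levels was r = 0.65 and Spearman's rho = 0.71 over the 46 heifers (permutation tests with 100000 resamples, adjusted p = 0.00024 and 0.00012 over 12 relations). Without the 2 heifers farthest from the median of MX2, r was 0.65.

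Fitted separately by diet group, the slope of TLR4 above the gap was positive in all 4 groups, with larger errors. It was 0.18 in CON_High (interval 0.06 to 0.30, adjusted p = 0.0842), 0.21 in CON_Low (0.08 to 0.35, adjusted p = 0.128), 0.18 in PUFA_High (0.02 to 0.35, adjusted p = 0.276) and 0.13 in PUFA_Low (0.04 to 0.22, adjusted p = 0.103). Slopes in these groups were called for 7.73%, 1.85%, 2.17% and 6.42% of genes, in the same order. The adjusted p also depends on these shares: unadjusted, it was 0.0055 in CON_High and 0.0028 in CON_Low for TLR4 (quasi-likelihood test). A test of equal slopes over the diet groups gave an unadjusted p of 0.756 for TLR4, an adjusted p of 1.00, with 0% of genes called and 429 at an unadjusted p under 0.05. Library codes in the labels carry 1 of 6 prefixes of unstated meaning. A straight line through the log2 levels, without a diet group term or an error, rose within 6 of 6 prefixes. Its slope was 0.13 to 0.42 with 5 to 9 heifers each. With each of the 46 heifers left out in turn, the edgeR slope of TLR4 with diet group stayed between 0.15 and 0.17.

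PTGS2 and IL1B had no called slope above the gap. The slope of PTGS2 was 0.08 (SE 0.12, interval -0.15 to 0.32, adjusted p = 0.643), and its correlation with MX2 was r = 0.07 (rho = 0.05, permutation tests, adjusted p = 0.628 and 0.728). The slope of IL1B was 0.08 (SE 0.093, interval -0.11 to 0.27, adjusted p = 0.576, r = 0.14). In the model of all genes with a read, 20.6% were called, and the slope was 0.19 for TNF (interval -0.11 to 0.48, adjusted p = 0.428), 0.26 for IL6 (interval -0.17 to 0.70, adjusted p = 0.452) and 0.27 for CXCL8 (interval -0.22 to 0.77, adjusted p = 0.503). Each of these intervals contains both 0 and the slope of TLR4, so that a slope as steep as that of TLR4 was not excluded for these genes. The difference between the slope of TLR4 and those of the other genes was not tested.

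Among the 14 heifers below the gap, 0 of the 6 genes were called, against 0.292% of 14377 genes and 0.263% of 19380 genes with a read. An unadjusted p under 0.05 was found for 2082 and 2345 genes in these fits (quasi-likelihood test). The median slope of all genes was -0.0029 and -0.0023. All 6 slopes were negative there, and they come from the same 14 heifers. They were -1.24 for PTGS2 (interval -2.19 to -0.29, unadjusted p = 0.0146, adjusted p = 0.259), -0.22 for TLR4 (adjusted p = 0.488) and -0.17 for IL1B (adjusted p = 0.866). They were -1.33 for TNF (adjusted p = 0.437), -1.29 for IL6 (adjusted p = 0.483) and -3.59 for CXCL8 (unadjusted p = 0.00189, adjusted p = 0.182). TLR4 was highest in this cluster in the CON_High heifer with the lowest MX2 of all, at 106 CPM. Its correlation with MX2 over the 14 heifers turned from r = -0.47 to 0.48 when the 2 heifers farthest from the median of MX2 were left out. Without the same heifers r shrank from -0.43 to -0.08 for TNF, from -0.63 to -0.17 for IL6, from -0.49 to -0.10 for CXCL8, from -0.46 to -0.27 for PTGS2 and from -0.29 to -0.21 for IL1B. CXCL8 rested on 14 reads in this cluster, with 9 of the 14 heifers at 0.

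Over all 60 heifers the slopes did not differ detectably between diet groups, a test that called 2.49% of genes and gave adjusted p of 0.582 for TLR4, 0.601 for IL1B and 0.776 for PTGS2. For PTGS2 the slope was 0.08 in CON_High (adjusted p = 0.556), 0.06 in CON_Low (0.870), 0.21 in PUFA_High (0.114) and 0.21 in PUFA_Low (0.0733). For TLR4 it was -0.0025 in CON_High (0.958), 0.03 in CON_Low (0.563), 0.04 in PUFA_High (0.341) and 0.07 in PUFA_Low (0.0226). For IL1B it was -0.0061 in CON_High (0.964), 0.11 in CON_Low (0.416), 0.21 in PUFA_High (0.0409) and 0.06 in PUFA_Low (0.547). The share of all genes called for these slopes was 13.9% in CON_High, 4.78% in CON_Low, 16.7% in PUFA_High and 16.5% in PUFA_Low.

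**Figure D4:**
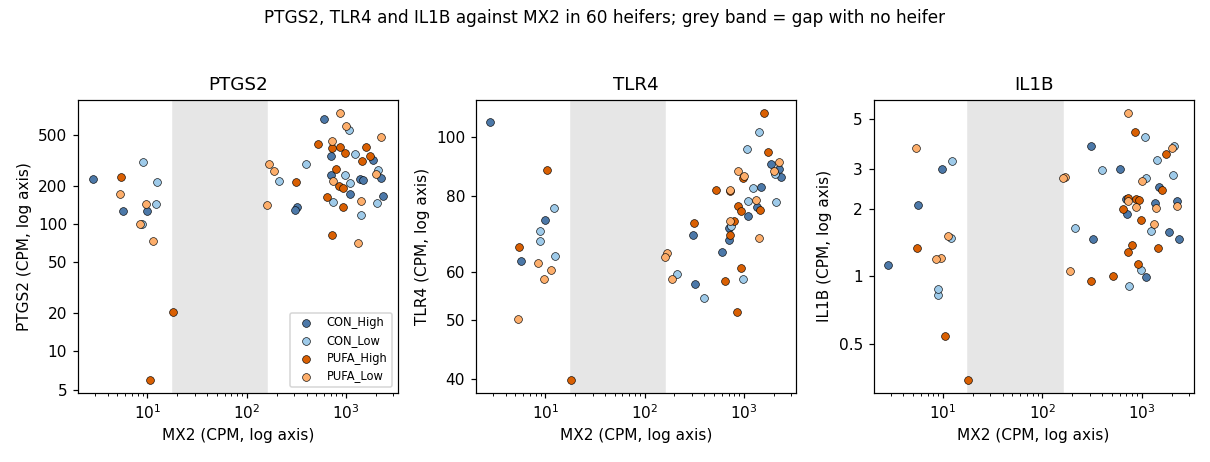
Level of PTGS2, TLR4 and IL1B (CPM, log axis) against the level of MX2 (CPM, log axis) in 60 heifers, colored by diet group, with a grey band over the range from 18.0 to 161 CPM that held no heifer. To the right of the band (n = 46) r was 0.65 for TLR4, 0.07 for PTGS2 and 0.14 for IL1B, and the difference between these genes was not tested.

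The 6 genes varied together only in part. Of the 15 pairs, IL1B and PTGS2 had the largest correlation of log2 levels over the 60 heifers, with r = 0.46 (rho = 0.24, permutation tests, adjusted p = 0.0051 and 0.242 over the 15 pairs). It rested on the 2 heifers farthest from the median of IL1B, without which r was 0.20 (adjusted p = 0.345). Within the MX2 clusters it was 0.16 above the gap (n = 46) and 0.59 below it (n = 14), with adjusted p of 0.427 and 0.108 over 6 relations. TLR4 and PTGS2 had r = 0.31 (adjusted p = 0.081) and rho = 0.39 (adjusted p = 0.039) over all heifers, but r was 0.15 (adjusted p = 0.483) without the 2 heifers farthest from the median of TLR4. Above the gap these were r = 0.31 (adjusted p = 0.108) and rho = 0.38 (adjusted p = 0.051), and r was 0.28 without the 2 farthest heifers there. TNF and PTGS2 had r = 0.32 but rho = 0.08, with adjusted p of 0.081 and 0.778. The other 12 pairs had r between -0.01 and 0.28, with adjusted p of 0.107 or higher.

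The genes whose levels followed PTGS2 most closely are given by Ensembl identifier only. The likeness was the correlation of deviations from the diet group means over 60 heifers, for 14362 other genes. It was highest for ENSBTAG00000006589 (r = 0.85) and ENSBTAG00000016305 (r = 0.85) and lowest for ENSBTAG00000025494 (r = -0.83) and ENSBTAG00000030599 (r = -0.81). ENSBTAG00000006589 ranged from 4.91 to 527 CPM and ENSBTAG00000016305 from 23.3 to 830.1 CPM. Without the 2 heifers of lowest PTGS2 the 4 correlations were 0.69, 0.69, -0.69 and -0.65, and among the 46 heifers above the MX2 gap they were 0.68, 0.59, -0.65 and -0.56. These values are descriptions, chosen as the most extreme of many genes measured in the same libraries. By the same measure IL1B (r = 0.45) ranked above 92.9% of genes and TLR4 (r = 0.31) above 85.3%.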

How the data were processed

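Endometrial RNA of 60 heifers was sequenced as single-end Illumina TruSeq mRNA libraries. The authors aligned reads to the UMD3.1 genome with TopHat2 2.0.9, after base calling with CASAVA 1.4, counted reads per Ensembl gene with HTSeq 0.5.4p5, as the submitters' processing notes and the methods state, and deposited raw counts without normalization for 24616 genes. Strand use and the treatment of reads that map to several places are not given in the sources used here, so reads shared with overlapping genes could not be told apart.

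From these counts, edgeR 4.0.16 (R 4.3.3) was used with filterByExpr (14363 genes), TMM scaling and a quasi-likelihood model with 1 coefficient per diet group, for 5 diet comparisons. For slopes, the log2 CPM of MX2 (prior count 0.5) was added, over all heifers and on each side of the gap. Standard errors are the size of each log2 fold change over the square root of its F. p-values were adjusted by Benjamini-Hochberg over all genes of each fit. Correlations used two-sided permutation tests with 100000 resamples. Simulated counts were used to try the plane comparison in n-3 PUFA heifers and the MX2 slope over all heifers, for filtered genes. The fits on each side of the gap and the model of all genes with a read were not simulated. DESeq2 1.42.0 served as an alternative. The pairs of libraries within groups (423) were compared, and the smallest chi-square per gene, 17.4, gave no sign of a library deposited more than once.

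The 6 genes, the comparisons and the rule for other named genes were chosen with earlier results of these data known. The rule took the 6 genes, MX2 and, where symbols could not be paired, the 2 genes of highest and the 2 of lowest correlation with PTGS2. Of 37063 genes in the name table, which is built on ARS-UCD2.0, 0 carried an Ensembl identifier, so pathway lists, cell type markers, coordinates and sequences were not used here. Replicate numbers only name heifers: same-numbered heifers of different groups deviated together with a mean r of -0.049, against 0.0042 for different numbers.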

Additional observations from a re-analysis of the deposited data

How the results depend on the processing

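The 6 genes gave 303 diet differences under other settings, of which 1 was called and 28 had another sign, and 1800 with 1 heifer left out, of which 1 was called. Both calls were TNF in PUFA_Low against PUFA_High, at 0.92 with MX2 as a covariate and 0.92 without PUFA_Low replicate 3. The slope of TLR4 above the gap stayed called under every alternative run on it, at 0.16 to 0.17, and at 0.15 to 0.17 with each heifer left out. Below the gap the slope was -1.24 for PTGS2, -0.22 for TLR4, -0.17 for IL1B, -1.33 for TNF, -1.29 for IL6 and -3.59 for CXCL8. The cause of the changes below was not tested. With so few reads of TNF, IL6 and CXCL8, depth limits what can be said of them.

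All other changes of sign were in values that were not called before or after. With PUFA_High and PUFA_Low swapped, the plane difference in these heifers was by construction -0.18 for PTGS2, 0.052 for TLR4, -0.44 for IL1B, -0.82 for TNF, 0.30 for IL6 and -0.10 for CXCL8. The supplement difference was then -0.35 for IL1B on the low plane and 0.18 for IL1B and 0.092 for TNF on the high plane, and the interaction -0.16 for PTGS2, 0.086 for TLR4, -0.53 for IL1B and -1.06 for TNF. With the share of the 100 most abundant genes as covariate, the plane difference in n-3 PUFA heifers was -0.023 for PTGS2, -0.067 for IL1B and -0.26 for CXCL8, the supplement difference on the low plane -0.35 for IL1B and -0.18 for IL6, and the interaction -0.022 for PTGS2 and -0.19 for IL1B. With MX2 as a covariate, PTGS2 differed by -0.064 between supplements on the high plane and by 0.041 between planes in control heifers, and the interaction of TLR4 was 0.0014. Upper-quartile scale factors gave 0.0035 for the interaction of TLR4 and -0.00081 for the slope of CXCL8, which was -0.0019 without the diet group term. The prefix block gave 0.0047 for PTGS2 between planes in control heifers. The replicate block gave PTGS2 -0.016 between PUFA_Low and PUFA_High, 0.060 between planes in control heifers and -0.076 for the interaction, left each call among the 6 genes as it was, and moved the number of genes called with MX2 above the gap from 4376 to 2555. Without the 2 heifers farthest from the median, r was 0.0059 for IL6 and IL1B and -0.033 for IL1B and CXCL8.

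With 1 heifer left out, signs changed within these ranges and no value was called. Slopes were -0.030 to 0.10 for CXCL8 and -0.0096 to 0.087 for IL6. Interactions were -0.81 to 0.084 for CXCL8, -0.013 to 0.37 for PTGS2 and -0.062 to 0.027 for TLR4. Supplement differences were -0.032 to 0.26 for PTGS2 on the high plane. On the low plane they were -0.033 to 0.20 for IL1B, -0.12 to 0.25 for IL6 and -0.29 to 0.10 for TNF. Plane differences in control heifers were -0.014 to 0.19 for IL1B, -0.18 to 0.20 for PTGS2, -0.077 to 0.0099 for TLR4 and -0.011 to 0.39 for TNF, and in n-3 PUFA heifers -0.23 to 0.56 for CXCL8 and -0.0078 to 0.26 for PTGS2.

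Counts of genes called over the whole table depended on the setting. For the interaction, 1155 genes became 0 with the share covariate, 310 with PUFA_High and PUFA_Low swapped, 0 at an adjusted p under 0.001, 2981 at any fold change, and 747 (without CON_High replicate 11) to 1480 (without PUFA_High replicate 4) with 1 heifer left out. For n-3 PUFA on the low plane, 369 became 0, 6, 44 and 2517 under the same 4 settings. For n-3 PUFA on the high plane, 0 became 2 with DESeq2, 35 among all genes, 206 with the groups swapped, and 0 to 30 with 1 heifer left out (30 without PUFA_High replicate 4). Between planes, 806 in n-3 PUFA heifers became 42 with the share covariate, 260 at an adjusted p under 0.001 and 4493 at any fold change, and 0 in control heifers became 3 among all genes. IL1B gave no value under the filter of 10 counts in every library, and 7 values without an adjusted p in DESeq2 were left out.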
